A study of Homo sapiens with 42 samples.

Results

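The 9 genes described here are the core of the Notch pathway as these fibroblasts could use it: the receptors NOTCH1, NOTCH2 and NOTCH3, the Jagged ligands JAG1 and JAG2, and the target repressors HES1, HEY1, HEY2 and HEYL. They were taken by name from the 28266 gene symbols of the count table, and all 9 were present. The data are RNA-seq counts of poly(A) RNA from human lung fibroblasts, with 42 libraries in 12 groups. IMR90 ER:RAS cells, which carry oncogenic RAS fused to the estrogen receptor, received DMSO or 100 nM 4-hydroxytamoxifen (4OHT), which activates the fusion and leads to oncogene-induced senescence (OIS). Parental IMR90 cells, labelled wild type like the ER:RAS cells, received DMSO or 50 µg/ml bleomycin for 24 h, a DNA-breaking drug that leads to senescence. Each of these 4 conditions was combined with a control shRNA or with 1 of 2 shRNAs against COPB2 (shCOPB2_1 and shCOPB2_2), a subunit of the COPI vesicle coat. All groups, controls included, were grown for 7 days and then given 1 µg/ml doxycycline for 72 h to switch on the shRNA, so every library was collected on day 10. Each ER:RAS group held 3 libraries and each IMR90 group 4.

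Notch is a signalling route between touching cells. A ligand on one cell pulls on the receptor of its neighbour, ADAM proteases and then gamma-secretase cut the receptor, and the freed intracellular domain joins the DNA-binding protein RBPJ and a Mastermind co-activator to switch on HES and HEY genes, whose products are themselves transcriptional repressors. In fibroblasts entering RAS-driven senescence, NOTCH1 activity is known to rise and then fall, and this change is tied to a switch from a secretome rich in TGF-beta and its targets to an inflammatory secretome driven by CEBPB. RNA levels give the abundance of the pathway's transcripts and not the amount of cleaved receptor.

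The 42 libraries held between 13148194 and 23597310 counts each. COPB2 was lower with both COPB2 shRNAs in every condition, by 2.11 to 2.93 on the log2 scale. HRAS lay between 2573 and 6783 CPM (counts scaled to a common library size, with TMM factors) in the ER:RAS libraries and between 23 and 174 CPM in the IMR90 libraries, and ESR1, from which the fusion's receptor part derives, lay at 1438 CPM or more in the former and at 0.632 CPM or less in the latter. The libraries were therefore in their labelled groups for the knockdown and the transgene. Libraries differed in how far counts rose with a gene's GC content, from -0.431 to 0.757 log2 units per 10% GC, with the steepest rise in OIS control shRNA replicate 1. Fibroblast markers were high throughout, with a summed level of 10 genes of 8284 to 28045 CPM, although 8 of the 10 were called lower in OIS (median log2 fold change -1.70) and 7 in bleomycin (-1.09) with the control shRNA.

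The proximal promoter of HES1, which rose in OIS, held the letters bound by the RBPJ complex more than once, so its sequence is shown beside those of the receptor and the ligand that fell. The 250 bases before each RefSeq start (GRCh38.p14) were searched on both strands for TGGGAA, the core of the RBPJ site, for CACGTG, the E-box read by HEY and HES proteins, and for CACNAG, the N-box read by HES proteins. The matches are in capitals.
HES1, chr3:194135898-194136147, plus strand: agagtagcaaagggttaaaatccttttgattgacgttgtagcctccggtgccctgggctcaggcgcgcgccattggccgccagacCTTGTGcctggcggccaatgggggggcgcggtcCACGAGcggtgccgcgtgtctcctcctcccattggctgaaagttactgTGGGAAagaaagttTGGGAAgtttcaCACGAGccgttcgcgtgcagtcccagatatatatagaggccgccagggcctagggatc
NOTCH2, chr1:120069663-120069912, minus strand: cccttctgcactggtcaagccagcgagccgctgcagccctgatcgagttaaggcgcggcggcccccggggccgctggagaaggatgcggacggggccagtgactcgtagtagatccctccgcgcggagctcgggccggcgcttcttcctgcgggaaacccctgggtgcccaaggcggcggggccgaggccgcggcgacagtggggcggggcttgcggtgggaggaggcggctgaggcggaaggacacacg
JAG1, chr20:10674000-10674249, minus strand: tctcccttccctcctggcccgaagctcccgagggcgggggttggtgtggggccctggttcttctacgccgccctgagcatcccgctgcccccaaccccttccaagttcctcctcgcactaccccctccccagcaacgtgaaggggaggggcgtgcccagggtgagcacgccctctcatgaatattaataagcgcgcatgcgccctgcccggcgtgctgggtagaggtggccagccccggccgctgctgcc
The HES1 window held TGGGAA 84 and 70 bases before the start, both in the same orientation, and N-boxes at 165, 132 and 58 bases. Neither the NOTCH2 nor the JAG1 window held any of the 3 motifs. The same was true of NOTCH1 and JAG2, which did not pass the test in OIS with the control shRNA. NOTCH3, which did not pass either, held no TGGGAA and 1 N-box, 211 bases before its start. A window with at least 1 TGGGAA was common, at 20.8% of the 35116 promoters in the table, whereas 2.9% held at least 2, 6.34% held CACGTG and 32% held CACNAG. HEYL also held TGGGAA at 2 places, 178 and 99 bases before its start, and HEY2 at 1, 213 bases before it. These 6 letters share GGGAA with sites of NF-kappaB, so a match is a description of the letters and not of what binds them. Of the 9 members, 8 had a promoter in the table, all but HEY1.

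The 3 receptors were all expressed before senescence, but at unequal levels. RPKM here is CPM per kilobase of exon, counted over all GENCODE models of a gene and not over 1 transcript. In RPKM, uninduced ER:RAS cells with the control shRNA averaged 8.32 for NOTCH3, 7.63 for NOTCH2 and 1.31 for NOTCH1. The exon lengths used were 9408, 16744 and 12531 bases. Without division by length the means were 78.2, 128 and 16.4 CPM, so the order of NOTCH3 and NOTCH2 rests on these lengths. In OIS the NOTCH2 mean was 2.85 RPKM, while NOTCH3 stood at 7.76 and NOTCH1 at 1.28. NOTCH2 was thus the receptor whose RNA fell.

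NOTCH2 is the receptor known for its role in the development of bile ducts, bone and B cells, and lies at chr1:119911553-120069662 on the minus strand. With the control shRNA it was measured at 152, 153 and 77.6 CPM in the 3 DMSO libraries and at 35.4, 38.2 and 69.6 CPM in the 3 OIS libraries. All 3 OIS values lay under all 3 DMSO values, the closest pair being replicate 3 of each. The log2 fold change was -1.49 ± 0.31 (SE), or 2.81-fold lower, with an adjusted p of 0.00147 (edgeR quasi-likelihood test, Benjamini-Hochberg over 14297 genes). In separate libraries carrying shCOPB2_1, NOTCH2 went from 166, 158 and 134 CPM to 60.2, 42.4 and 63.3 CPM. With shCOPB2_2 it went from 126, 144 and 132 CPM to 46.4, 43.3 and 61.2 CPM. The 2 groups were apart in each, and the log2 fold changes were -1.53 ± 0.31 (edgeR adjusted p = 0.0011) and -1.47 ± 0.31 (edgeR adjusted p = 0.00154). Since NOTCH2 has a long transcript and its GC content (49.4%) is below that of the other receptors, the fit was repeated with each library's trend over GC and length removed, a choice made after the trends were seen: the control shRNA value was then -1.26, with an edgeR adjusted p of 0.000146.

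Reads of NOTCH2 can be shared with the NOTCH2NL genes, near-identical partial copies on the same chromosome, so its count is uncertain to that extent. In OIS with the control shRNA 2 of the copies rose while NOTCH2 fell, with log2 fold changes of 1.86 ± 0.49 for NOTCH2NLA and 1.94 ± 0.48 for NOTCH2NLB (edgeR adjusted p = 0.00718 and 0.0049). NOTCH2NLR was at 1.03 ± 0.55 (edgeR adjusted p = 0.166), and NOTCH2NLC, with 42 counts over the 9 uninduced libraries and 12 over the 9 OIS libraries, was not tested in that fit. The copies were highest in OIS control shRNA replicate 1, where NOTCH2 was at its lowest of 35.4 CPM and NOTCH2NLB, NOTCH2NLA and NOTCH2NLR were at 12.6, 5.5 and 2.89 CPM. Their part in the NOTCH2 values was not tested. In OIS NOTCH2NLB reached 2.15 to 12.6 CPM, against 0.769 to 2.48 CPM in the uninduced cells.

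In bleomycin, NOTCH2 did not pass the test with any shRNA. The control shRNA libraries read 255, 213, 164 and 172 CPM with DMSO and 167, 191, 168 and 127 CPM with bleomycin, and the 2 sets overlapped. The log2 fold changes were -0.33 ± 0.25 with the control shRNA, -0.08 ± 0.25 with shCOPB2_1 and -0.54 ± 0.25 with shCOPB2_2 (edgeR adjusted p = 0.36, 0.835 and 0.098). With shCOPB2_2 the bleomycin libraries were spread widely, at 144, 89.3, 175 and 69.3 CPM.

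NOTCH3, the receptor best known from vascular smooth muscle, lies at chr19:15159038-15200995 and did not pass the test in either kind of senescence. The control shRNA libraries read 77.4, 116 and 41 CPM with DMSO and 73.9, 71.8 and 73.2 CPM in OIS, so the OIS values fell inside the DMSO range. Over all 18 ER:RAS libraries NOTCH3 ranged from 41 to 126 CPM with DMSO and from 51.3 to 74.3 CPM in OIS. Its log2 fold change in OIS was -0.18 ± 0.31, -0.49 ± 0.31 and -0.43 ± 0.31 with the control shRNA, shCOPB2_1 and shCOPB2_2 (edgeR adjusted p = 0.711, 0.233 and 0.302), and in bleomycin -0.28 ± 0.26, -0.40 ± 0.26 and -0.34 ± 0.26 (edgeR adjusted p = 0.464, 0.249 and 0.319).

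NOTCH1, the receptor tied to the secretome switch, lies at chr9:136494433-136546048 and was the least abundant of the 3 per length in every condition. It was measured at 18.7, 19.8 and 10.8 CPM with DMSO and 13.2, 14.4 and 20.5 CPM in OIS with the control shRNA. The 2 sets overlapped, and over all 42 libraries NOTCH1 stayed between 10.8 and 25.4 CPM. The 6 log2 fold changes in senescence ran from -0.11 to 0.09 with standard errors of 0.25 to 0.28, and the smallest of their edgeR adjusted p values was 0.807. With the GC and length correction the OIS values for shCOPB2_1 and shCOPB2_2 were 0.31 and 0.36 (edgeR adjusted p = 0.431 and 0.354).

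**Figure D1:**
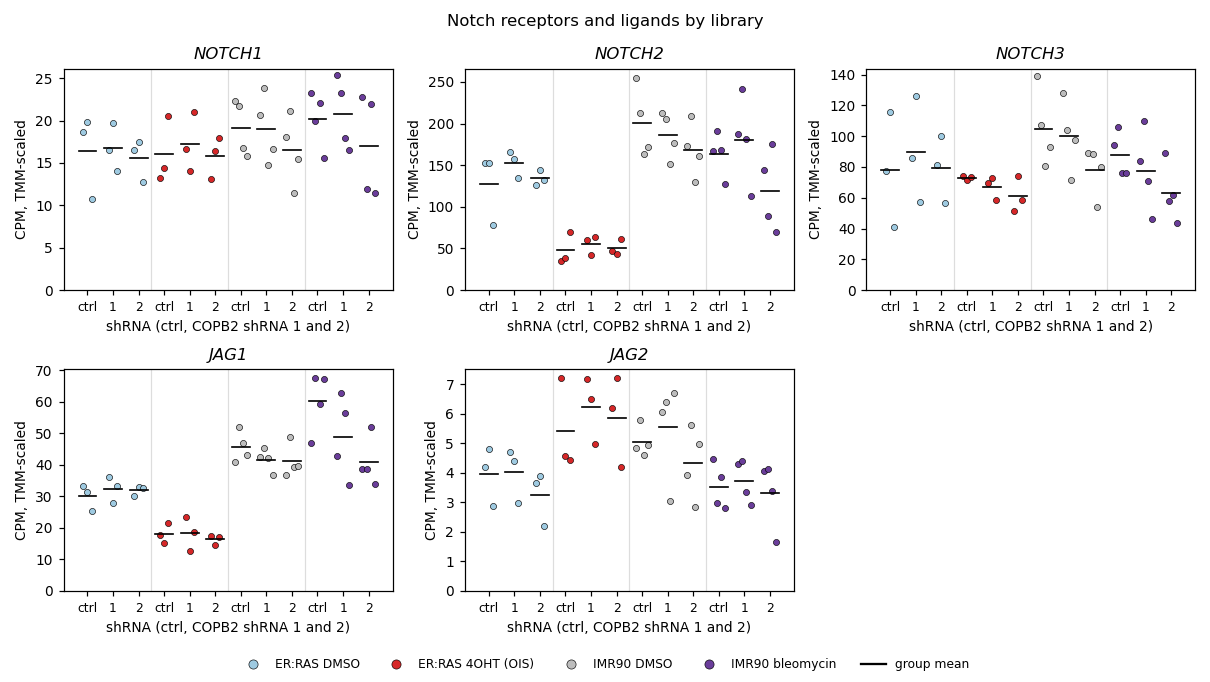
Levels of the 3 receptors and 2 ligands in all 42 libraries (CPM scaled by TMM factors, linear axis from 0), 1 point per library and a bar at each group's mean, with libraries grouped by condition and shRNA. NOTCH2 and JAG1 are lowest in the OIS groups, while NOTCH1 and NOTCH3 overlap across the conditions.

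The make-up of receptor RNA therefore differed in OIS. Of the summed RPKM of the 3 receptors, NOTCH2 made up 45% ± 4.69 (SD, n = 3) in uninduced ER:RAS cells with the control shRNA and 23.5% ± 6.24 in OIS. NOTCH3 made up 47.1% ± 5.52 and 65.9% ± 7.5, and NOTCH1 7.84% ± 0.97 and 10.7% ± 1.29. With shCOPB2_1 the NOTCH2 share was 46.6% ± 7.17 with DMSO and 28% ± 5.2 in OIS, and with shCOPB2_2 it was 45.8% ± 6.18 and 28.1% ± 5.46. In IMR90 cells with the control shRNA the NOTCH2 share was 48.7% ± 0.96 with DMSO and 47% ± 2.49 with bleomycin (n = 4 each). No library in OIS had a NOTCH2 share above 32.5%, and no uninduced ER:RAS library had one below 38.7%. The shares rest on the exon lengths given above and were not corrected for GC content, which is lower for NOTCH2. In OIS control shRNA replicates 1 to 3 the NOTCH2 share was 19.2%, 20.6% and 30.6%, at GC slopes of 0.757, 0.136 and -0.222. In the uninduced control shRNA replicates it was 48.4%, 39.7% and 47%, at slopes of 0.0449, 0.662 and -0.211 log2 units per 10% GC. The part of GC content in the shares was not tested.

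**Figure D2:**
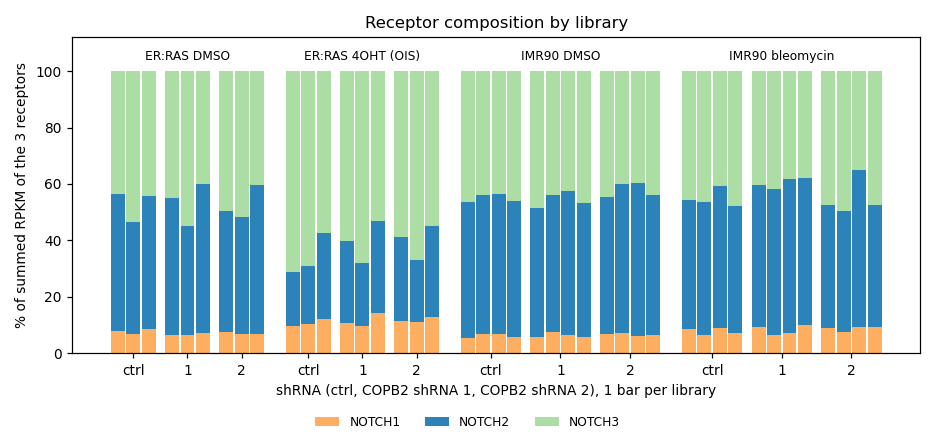
Share of each receptor in the summed RPKM of NOTCH1, NOTCH2 and NOTCH3, 1 stacked bar per library, by condition and shRNA. The shares are not corrected for GC content. The NOTCH2 segment is shorter in all 9 OIS libraries than in the 9 uninduced ER:RAS libraries, and the NOTCH3 segment spans 53.2% to 71.3% in OIS and 40% to 54.8% in the uninduced libraries, so its ranges overlap.

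Of the 2 Jagged ligands, JAG1 fell in OIS and JAG2 did not pass the test with the control shRNA. JAG1, a ligand that activates Notch in neighbouring cells, lies at chr20:10637684-10673999. It was measured at 33.3, 31.5 and 25.5 CPM with DMSO and at 17.6, 15.1 and 21.7 CPM in OIS with the control shRNA. The sets did not overlap, and the log2 fold change was -0.82 ± 0.24, or 1.76-fold lower (edgeR adjusted p = 0.016). The libraries with shCOPB2_1 gave 36.1, 27.9 and 33.3 CPM against 23.6, 12.8 and 18.6 CPM, and those with shCOPB2_2 gave 30.1, 32.9 and 32.7 CPM against 17.5, 14.7 and 17.1 CPM. Their log2 fold changes were -0.90 ± 0.25 and -1.03 ± 0.25 (edgeR adjusted p = 0.00882 and 0.00376). With the control shRNA the JAG1 call was lost without OIS replicate 1 (-0.74, adjusted p = 0.0516), OIS replicate 2 (-0.64, 0.0923) or DMSO replicate 1 (-0.69, 0.0757), and in the edgeR fit of those 6 libraries alone (0.133). With shCOPB2_1 it was lost without OIS replicate 2 (-0.63, edgeR adjusted p = 0.06) and in the fit of those 6 libraries alone (0.0641).

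JAG1 went the other way in bleomycin, without passing the test. The control shRNA libraries read 41, 51.9, 47 and 43.1 CPM with DMSO and 46.9, 67.5, 59.4 and 67.1 CPM with bleomycin. The sets overlapped in 1 bleomycin library, and the log2 fold change was 0.36 ± 0.17 (edgeR adjusted p = 0.118). It was 0.19 ± 0.17 with shCOPB2_1 and -0.05 ± 0.17 with shCOPB2_2 (edgeR adjusted p = 0.42 and 0.844).

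JAG2, the second Jagged ligand, at chr14:105140995-105168776, was less abundant than JAG1, at 0.619 against 3.24 RPKM in uninduced ER:RAS cells with the control shRNA. In OIS it was measured at 7.22, 4.56 and 4.43 CPM, against 4.18, 4.81 and 2.89 CPM with DMSO. These overlapped, and the log2 fold change was 0.35 ± 0.29 (edgeR adjusted p = 0.383). It was 0.55 ± 0.28 with shCOPB2_1 (edgeR adjusted p = 0.15, or 0.026 with the replicate number as a block, in a contrast whose numbers pair the libraries, and 0.00301 with the GC and length correction, at 0.79) and 0.78 ± 0.29 with shCOPB2_2 (edgeR adjusted p = 0.0452). The shCOPB2_2 call was a narrow one: it held in 1 of the 6 fits that left out a library, the one without OIS replicate 3, and was lost in the other 5, in the edgeR fit of those 6 libraries alone (adjusted p = 0.117), with DESeq2 size factors (0.0507) and without the count filter (0.0685). In bleomycin the JAG2 log2 fold changes were -0.55 ± 0.28, -0.61 ± 0.28 and -0.43 ± 0.28 (edgeR adjusted p = 0.155, 0.0977 and 0.237).

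Both measurable target repressors rose in OIS, and HEY1 rose most of the members. HEY1, a repressor switched on by Notch and also by BMP signals in several cell types, lies at chr8:79764010-79767767. With the control shRNA it was measured at 0.306, 0.95 and 0.625 CPM with DMSO and at 43.2, 33.6 and 39.7 CPM in OIS. The log2 fold change was 5.86 ± 0.35, or 58.2-fold higher (edgeR adjusted p = 7.77e-09). With shCOPB2_1 the libraries went from 0.523, 0.621 and 0.501 CPM to 39.1, 34.3 and 38.7 CPM, and with shCOPB2_2 from 0.678, 0.365 and 0.433 CPM to 37.4, 38.5 and 41.6 CPM. All 9 OIS libraries lay within 33.6 to 43.2 CPM (479 to 757 counts) and all 9 uninduced libraries within 0.306 to 0.95 CPM (6 to 15 counts). The log2 fold changes with the COPB2 shRNAs were 6.0 ± 0.35 and 6.25 ± 0.36 (edgeR adjusted p = 7.14e-09 and 5.73e-09).

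HES1, the repressor taken as the general readout of Notch, lies at chr3:194136148-194138732. It went from 2.29, 2.41 and 1.78 CPM with DMSO to 21.2, 10.6 and 10.1 CPM in OIS with the control shRNA. The first OIS library stood above the other 2, and all 3 stood above the DMSO libraries. The log2 fold change was 2.58 ± 0.32, or 5.97-fold higher (edgeR adjusted p = 1.44e-05), and without that first library it was 2.22. With shCOPB2_1 the values were 1.62, 1.43 and 0.957 CPM against 12.4, 15 and 13.7 CPM, and with shCOPB2_2 2.54, 1.4 and 1.68 CPM against 11.9, 13.9 and 14.7 CPM. The log2 fold changes were 3.28 ± 0.33 and 2.78 ± 0.32 (edgeR adjusted p = 1.68e-06 and 7.45e-06). In RPKM with the control shRNA, HES1 and HEY1 stood at 6.78 and 7.08 in OIS, from 1.05 and 0.114 in uninduced cells. The exon length used for HEY1, 5487 bases over all its models, is longer than its RefSeq span given above. That used for HES1 was 2059 bases. The levels of the 2 genes are therefore not ranked against each other.

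**Figure D3:**
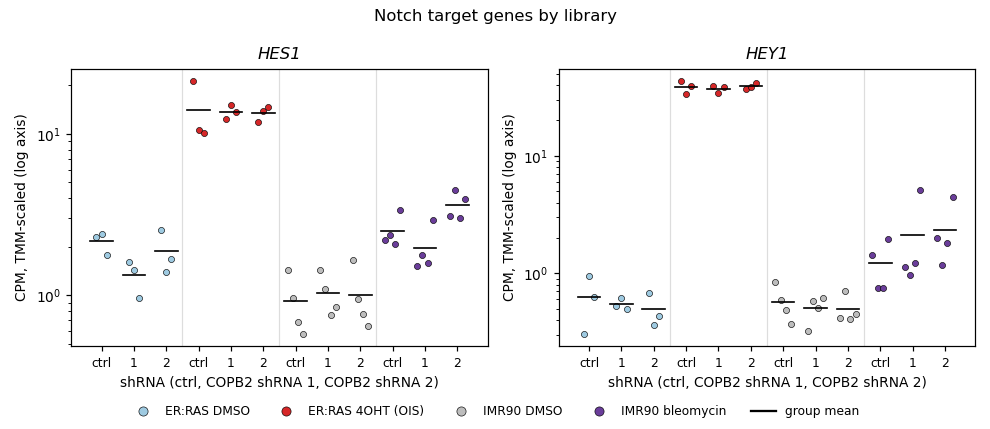
Levels of HES1 and HEY1 in all 42 libraries (CPM scaled by TMM factors, log axis), 1 point per library and a bar at each group's mean. The 9 OIS libraries lie at 10.1 to 21.2 CPM for HES1 and at 33.6 to 43.2 CPM for HEY1, above all libraries of the other 3 conditions.

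Bleomycin raised HES1 to a lower level. The control shRNA libraries read 1.44, 0.963, 0.685 and 0.579 CPM with DMSO (11 to 24 counts) and 2.2, 2.35, 2.07 and 3.37 CPM with bleomycin (36 to 65 counts). The sets did not overlap, and the log2 fold change was 1.43 ± 0.32, or 2.69-fold higher (edgeR adjusted p = 0.00154). It was 0.89 ± 0.31 with shCOPB2_1 (edgeR adjusted p = 0.0315) and 1.82 ± 0.31 with shCOPB2_2 (edgeR adjusted p = 0.000103). With shCOPB2_1 the bleomycin libraries read 1.52, 1.79, 1.59 and 2.91 CPM, and the call was lost without the last of these (0.62, edgeR adjusted p = 0.147) and without DMSO replicate 2 (0.92), 3 (0.76) or 4 (0.80).

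HEY1 passed the test in bleomycin with the COPB2 shRNAs and not with the control shRNA. With DMSO and the control shRNA it was measured at 0.837, 0.596, 0.489 and 0.368 CPM (7 to 14 counts), and with bleomycin at 1.44, 0.745, 0.747 and 1.97 CPM (13 to 38 counts). The 2 sets overlapped, and the log2 fold change of 1.08 ± 0.54 did not pass (edgeR adjusted p = 0.138). With shCOPB2_1 the bleomycin libraries read 1.13, 0.973, 1.22 and 5.16 CPM, and with shCOPB2_2 1.99, 1.18, 1.8 and 4.42 CPM. Replicate 4 was the highest of its group with every shRNA, yet each bleomycin library of the COPB2 shRNAs exceeded every DMSO library of the same shRNA (0.321 to 0.61 and 0.406 to 0.7 CPM). HEY1 passed with both, at 2.03 ± 0.52 and 2.22 ± 0.53 (edgeR adjusted p = 0.00434 and 0.00215). Without bleomycin replicate 4 these were 1.06 (edgeR adjusted p = 0.0653) and 1.72 (0.0123), so the first call was lost and the second held. In the same replicate 4 libraries DLL4, a Notch ligand outside the members, stood at 5.8, 9.39 and 8.36 CPM, against 0.517 to 2.33 CPM in the other 9 bleomycin libraries. Its part in the HEY1 values was not tested.

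HEY2 and HEYL, the remaining repressors of the HEY family, were at or near the limit of detection and did not pass the count filter. HEY2 gave 0 to 4 counts per OIS library (18 counts over 9 libraries) and 0 to 2 counts in every other library. HEYL gave 2 to 7 counts per OIS library (37 counts over 9 libraries) against 0 to 4 in uninduced ER:RAS libraries (13 counts), and 0 to 11 with bleomycin (59 counts over 12 libraries) against 0 to 4 in IMR90 with DMSO (9 counts). Since 3 counts, the floor set for a level in 1 library, correspond to 0.11 to 0.271 CPM, no fold is given. In the alternative without the filter, HEYL passed the test in OIS and in bleomycin with shCOPB2_2 (edgeR adjusted p = 0.00814 and 0.00593) and in no other senescence comparison, and HEY2 passed in none.

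Counted over the 7 members tested, OIS with the control shRNA called 2 higher (HEY1, HES1) and 2 lower (NOTCH2, JAG1), where 15.5% of all 14297 genes tested were called higher and 20.2% lower. The median log2 fold change of the 7 was -0.11, and that of all genes tested was -0.08. OIS with shCOPB2_1 called the same 4, against 15.4% of all genes higher and 21.5% lower, and OIS with shCOPB2_2 called these and JAG2, against 14.9% and 22%. Bleomycin with the control shRNA called 1 of 7, HES1, against 15.4% of 14783 genes higher and 15.8% lower. With shCOPB2_1 and shCOPB2_2, bleomycin called HES1 and HEY1, against 17.4% higher and 17.8% lower, and 21.7% higher and 18.3% lower. With 7 members, counts this small say little beside those shares. Scaling by DESeq2 size factors in place of TMM moved the median gene by 0.12 in OIS with the control shRNA and by 0.10 or less in the other senescence contrasts, and no called member changed direction.

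Markers of other cell types moved in these cultures too. In OIS with the control shRNA, 5 of the 6 endothelial markers tested rose and TEK fell, among them the junction proteins CLDN5 (0.266 to 52.5 CPM) and CDH5 (0 to 2.18 CPM) and the receptor TIE1 (0.432 to 34.2 CPM). The summed level of the 8 endothelial markers was 16.4 to 26.3 CPM in uninduced ER:RAS libraries and 77.9 to 127 CPM in OIS, with EMCN at 0 in every OIS library. The summed level of the 6 leukocyte markers rose from 17.2 to 44.2 CPM to 82 to 121 CPM, carried by CD68 (log2 fold change 1.98 ± 0.31, edgeR adjusted p = 0.000124), with CD3E at 0 in every OIS library. With bleomycin the leukocyte sum was 55 to 106 CPM, against 12.6 to 29.6 CPM, and the endothelial sum 8.39 to 35.2 CPM, against 24.6 to 36.7 CPM. With the control shRNA 5 endothelial markers were tested in bleomycin, of which 2 were called higher and 1 lower. Their log2 fold changes ran from -1.42 to 5.42, with a median of -0.34. Of the 7 mural markers 2 were higher and 5 lower in OIS, with a median log2 fold change of -3.37 and a summed level of 124 to 197 CPM in uninduced libraries and 129 to 250 CPM in OIS. In bleomycin 1 was higher and 2 lower, with sums of 134 to 212 CPM with DMSO and 108 to 199 CPM with bleomycin. Of the epithelial markers 3 could be tested in OIS, of which 1 was lower, and 4 in bleomycin, of which 1 was higher. HEY1 and HES1 are also expressed by endothelial cells, and the part of these cells or of the markers in the members' changes was not tested. In RNA from whole cultures, fewer cells with a transcript and less transcript per cell cannot be told apart.

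The COPB2 shRNAs were compared with the control shRNA within each condition, to see whether loss of the COPI subunit changed the Notch genes. It called none of the 7 members in any of the 8 comparisons by edgeR, and DESeq2 called none either. Of all genes, few were called: 0.00699% of genes with each shRNA in uninduced ER:RAS cells, 0.14% and 0.224% in OIS, 0.00676% with each in IMR90 with DMSO, and 0.00676% and 0.0744% in bleomycin. With the replicate number as a block, used where same-numbered libraries deviated together, the genes called went from 1 to 2 with shCOPB2_2 in IMR90 with DMSO and, in bleomycin, from 1 to 3 with shCOPB2_1 and from 11 to 28 with shCOPB2_2, none of them a member. At an unadjusted p under 0.05 there was 1 member with shCOPB2_1 in uninduced ER:RAS cells, HES1 at -0.72 ± 0.32, and 1 with shCOPB2_2 in bleomycin, JAG1 at -0.55 ± 0.17 (edgeR adjusted p = 0.538). In OIS the largest differences were -0.14 ± 0.31 (NOTCH3) and 0.20 ± 0.28 (JAG2) with shCOPB2_1, and -0.27 ± 0.31 (NOTCH3) and 0.10 ± 0.28 (JAG2) with shCOPB2_2. HEY1 in OIS differed by -0.06 ± 0.28 and 0.00 ± 0.28, and in bleomycin by 0.80 ± 0.49 and 0.95 ± 0.49. The standard errors leave room for changes of a size that these libraries could not show.

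Whether the shRNA effect differed between senescent and growing cells was tested as an interaction. It called 0 of the 7 members and 0% of all genes with each shRNA in each cell line (edgeR; DESeq2 also called 0 members), with no member at an unadjusted p under 0.05. The widest values were HES1 with shCOPB2_1 in ER:RAS cells, at 0.71 ± 0.43, and HEY1 with shCOPB2_2 in IMR90 cells, at 1.14 ± 0.76.

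**Figure D4:**
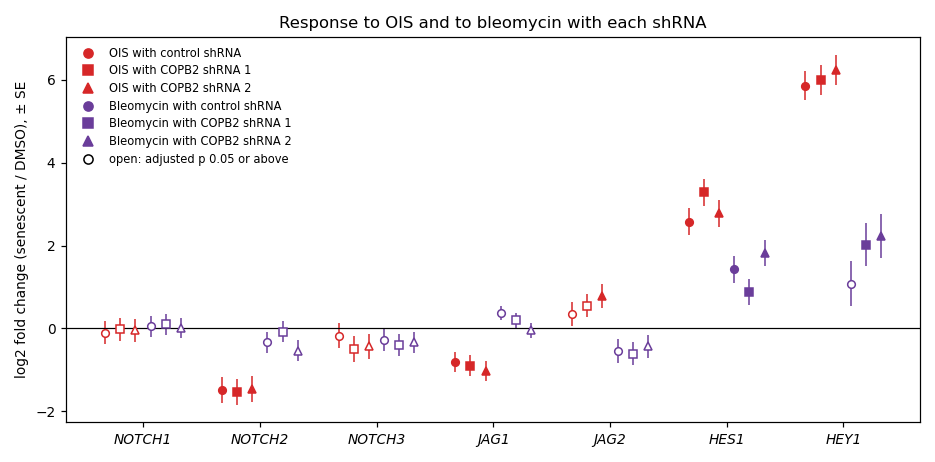
Log2 fold change in OIS (4OHT against DMSO, ER:RAS cells) and in bleomycin senescence (against DMSO, IMR90 cells) of the 7 members tested, with each shRNA; bars are standard errors from the edgeR fit and open symbols have an adjusted p of 0.05 or above. HEY1 lies near 6 in OIS with each shRNA and between 1.08 and 2.22 in bleomycin, and NOTCH2 lies near -1.5 in OIS.

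The OIS response and the bleomycin response were set against each other in a fit of all 42 libraries, which tests the difference of the 2 log2 fold changes with the control shRNA. It called 4 of the 7 members, where 20.3% of 15299 genes were called. The difference was 4.85 ± 0.68 for HEY1 and -1.13 ± 0.28 for JAG1 (edgeR adjusted p = 2.4e-06 and 0.00309). It was -1.12 ± 0.39 for NOTCH2 and 1.23 ± 0.45 for HES1, nearer the threshold (edgeR adjusted p = 0.0394 and 0.0493). NOTCH2 and HES1 each lost the call in 9 of the 14 fits that left out a library, and HES1 fell by most, to 0.81 (edgeR adjusted p = 0.23), without OIS replicate 1, its highest library. JAG2 was at 0.96 ± 0.42, NOTCH3 at 0.15 ± 0.42 and NOTCH1 at -0.11 ± 0.36 (edgeR adjusted p = 0.11, 0.873 and 0.896). The inducer and the cell line change together here and cannot be told apart.

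Uninduced ER:RAS cells were also compared with IMR90 cells, both with DMSO and the control shRNA, in a contrast that shares its libraries with the ones above. edgeR called 0 of the 7 members against 0.346% of all genes, DESeq2 called 1, and 3 had an unadjusted p under 0.05. HES1 was at 2.29, 2.41 and 1.78 CPM against 1.44, 0.963, 0.685 and 0.579 CPM, so the lines did not overlap, and the log2 difference was 1.24 ± 0.33 (edgeR adjusted p = 0.101). NOTCH2 and JAG1 were at -0.65 ± 0.28 and -0.60 ± 0.20 (edgeR adjusted p = 0.383 and 0.225).

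Across all 12 groups the order of the group means had few gaps. For HES1 and for HEY1 the 3 OIS groups ranked highest, and the ranges of the groups at ranks 3 and 4 did not overlap. For NOTCH2 and for JAG1 the 3 OIS groups ranked lowest, with a like gap between ranks 9 and 10. All other neighbouring groups overlapped in these 4 genes, and for NOTCH1, NOTCH3, JAG2, HEY2 and HEYL every neighbouring pair overlapped. How common a gap between the OIS groups and the rest is among all genes was not counted. The gaps therefore describe these 4 genes and do not set them apart from other genes that change in OIS.

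Around the members, 71 further pathway genes in 7 lists were followed, of which 64 could be tested in OIS. With the control shRNA 14 were called higher and 11 lower, where 15.5% of all genes were higher and 20.2% lower, and their median log2 fold change was -0.30, against -0.08 over all genes. In bleomycin 66 could be tested, with 8 called higher and 13 lower, where 15.4% and 15.8% of all genes were, and a median of -0.08, against -0.01 over all genes. Nothing is read from these counts, and the lists are given by their genes' values.

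The list of other HES genes, which also held BHLHE40 and BHLHE41, was tested in OIS with the control shRNA. Of 5 tested, 4 were called higher and none lower: HES7, a segmentation clock repressor, at 3.64 ± 0.47, BHLHE41 and BHLHE40, repressors tied to circadian and hypoxic control, at 3.49 ± 0.26 and 3.35 ± 0.17, and HES4 at 2.29 ± 0.50 (edgeR adjusted p from 1.61e-09 to 0.00195). HES4 lay at 11.9 to 58.7 CPM in OIS and 2.87 to 6.78 CPM in uninduced cells, and HES7 at 8.57 to 21.8 CPM and 0.41 to 1.53 CPM. In bleomycin 3 of 6 were called higher, HES7 at 1.18 ± 0.36, BHLHE41 at 1.09 ± 0.22 and HES2, which averaged 0.015 CPM with DMSO and 0.812 CPM with bleomycin. BHLHE40 and HES4 were at 0.09 ± 0.24 and 0.17 ± 0.27 there, and neither passed the test.

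Among the other receptors and ligands, 3 of 7 tested were higher and 1 lower in OIS. DNER, a neuronal surface protein proposed as a ligand, averaged 0.192 CPM with DMSO and 6.47 CPM in OIS (4.91 ± 0.63), the ligand DLL1 was at 1.35 ± 0.38, the receptor NOTCH4 at 1.12 ± 0.36, and DLK2, a non-canonical ligand, at -1.93 ± 0.60 (edgeR adjusted p from 1.94e-05 to 0.0245). In bleomycin DNER (4.45 ± 0.77) and DLK1 (2.01 ± 0.47) were higher and MFAP2, a microfibril protein that binds Jagged, was lower at -1.92 ± 0.27 (edgeR adjusted p from 1.31e-05 to 0.0024), 3 of 8 tested. DLL4 in OIS was at -0.80 ± 0.35 with the control shRNA (edgeR adjusted p = 0.092) and was called lower with shCOPB2_1 and shCOPB2_2, at -1.14 ± 0.36 and -1.77 ± 0.37 (edgeR adjusted p = 0.02 and 0.0013). In bleomycin, where its replicate 4 libraries stood apart, DLL4 was at 0.42 ± 0.73 with the control shRNA (edgeR adjusted p = 0.716).

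The genes that act on the receptor itself moved in both directions. No gene of 7 tested that glycosylate it was called in OIS, while bleomycin lowered LFNG, the Fringe enzyme that tunes ligand choice, by 1.78 ± 0.32 and XXYLT1 by 0.63 ± 0.14, and raised POGLUT1 by 0.86 ± 0.23 (edgeR adjusted p from 0.000214 to 0.00581). Of the 9 cleavage genes, OIS raised the gamma-secretase subunit PSENEN (1.45 ± 0.41) and the convertase FURIN (0.87 ± 0.21) and lowered the subunit APH1B (-1.42 ± 0.22, edgeR adjusted p from 0.000136 to 0.0113). Bleomycin raised the subunits NCSTN (0.64 ± 0.19) and APH1B (0.58 ± 0.11, edgeR adjusted p = 0.0149 and 0.000196). APH1B was thus called lower in one setting and higher in the other, a difference given here as values side by side.

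Endocytosis and turnover held the largest falls. Of 15 genes in OIS 3 were higher and 5 lower. NEURL1B, a ubiquitin ligase that acts on Notch ligands, lay at 10.3 to 17.5 CPM in uninduced libraries and 0.22 to 0.474 CPM in OIS (-5.27 ± 0.34, edgeR adjusted p = 1.65e-08). The Deltex genes split: DTX1 (0.86 to 0.0813 CPM, 4 counts in all over the 9 OIS libraries), DTX3L (-1.47 ± 0.41) and DTX3 (-1.11 ± 0.30) were lower and DTX4 (1.80 ± 0.24) was higher. NUMB, which inhibits Notch by directing the receptor to degradation, rose by 2.13 ± 0.25, from 73.3 to 101 CPM over the uninduced libraries to 274 to 486 CPM (edgeR adjusted p = 8.46e-06). In bleomycin 4 of the 15 were lower and none higher, NEURL1B at -1.66 ± 0.22, DTX1 at -1.60 ± 0.59, DTX3L at -0.96 ± 0.21 and DTX3 at -0.45 ± 0.17, and NUMB was at 0.34 ± 0.13 (edgeR adjusted p = 0.0529).

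In the nucleus, RBPJ was at -0.35 ± 0.70 in OIS and -0.59 ± 0.33 in bleomycin (edgeR adjusted p = 0.754 and 0.188). Of the 8 genes of the nuclear complex, MAML1, a Mastermind co-activator, was the 1 called in OIS (-0.73 ± 0.24), and MAML1 (-0.96 ± 0.16) and MAML3 (-0.78 ± 0.19) were called lower in bleomycin (edgeR adjusted p = 0.0288, 0.000101 and 0.0036). Of the 13 co-repressors 2 were called higher in OIS, TLE3 (0.54 ± 0.20) among them, and 3 lower, TLE4 (-1.49 ± 0.21), TLE2 (-1.20 ± 0.35) and TLE1 (-0.93 ± 0.20), the TLE genes being Groucho proteins recruited by HES repressors (edgeR adjusted p from 6.09e-05 to 0.0433). Bleomycin lowered 4 and raised none, TLE2 (-1.68 ± 0.25), TLE1 (-0.99 ± 0.12), CTBP2 (-0.56 ± 0.10) and CTBP1 (-0.37 ± 0.14, edgeR adjusted p from 3.2e-06 to 0.0388).

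**Figure D5:**
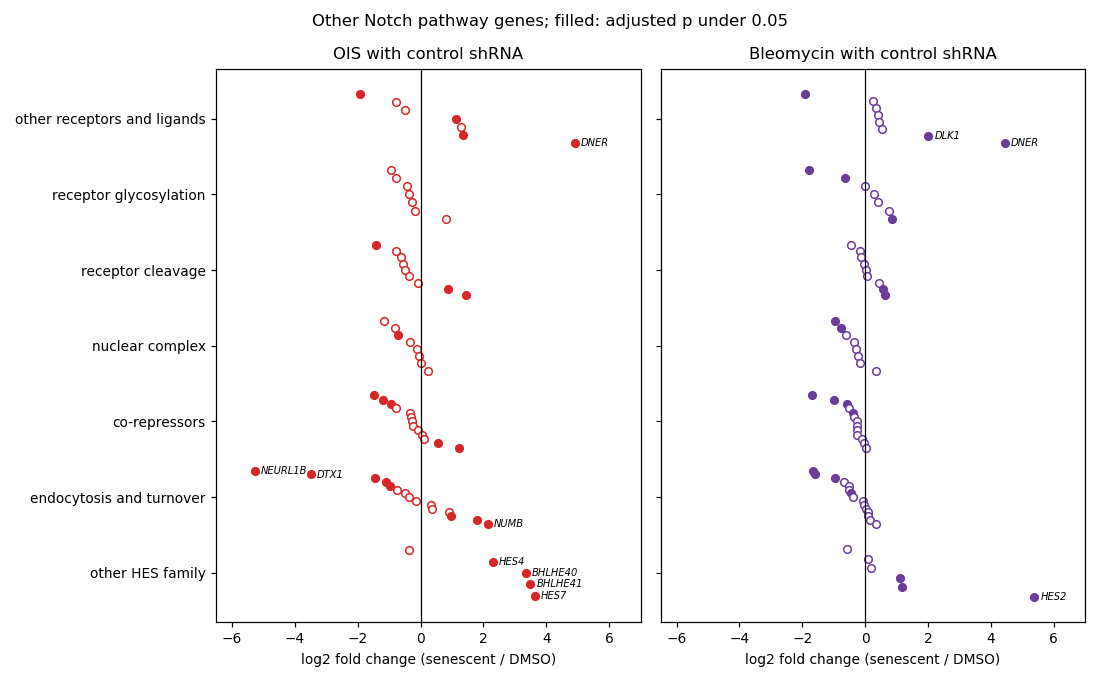
Log2 fold change with the control shRNA of every tested gene in the 7 pathway lists, in OIS and in bleomycin senescence, 1 point per gene with filled points at an adjusted p under 0.05; the named points are called genes that changed by more than 2 on the log2 scale. The list labelled other HES family, which includes BHLHE40 and BHLHE41, lies mostly above 0 in OIS. NEURL1B is the lowest point at -5.27.

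RNA of 2 gene lists, named for the 2 secretomes tied to Notch in senescence, was measured in the same libraries. The lists also hold genes whose products are not secreted, such as CEBPB and TAGLN. Of all genes with the control shRNA, 15.5% were called higher and 20.2% lower in OIS, and 15.4% and 15.8% in bleomycin. All 11 genes of the CEBPB-type inflammatory list were called higher in OIS with the control shRNA, with a median log2 fold change of 9.12. CEBPB itself was at 1.19 ± 0.26, and IL1B went from a mean of 0.888 to 8238 CPM. Of the 11 genes of the TGF-beta-type list 9 were lower and 2 higher, with a median of -1.41: COL3A1 (-4.79 ± 0.28), COL1A2 (-3.26 ± 0.24), TAGLN (-3.13 ± 0.44) and TGFB3 (-2.71 ± 0.25) were among those that fell, and TGFB1 (1.72 ± 0.30) was among those that rose (edgeR adjusted p from 7.42e-09 to 0.000294). The collagens in it are also fibroblast markers. In bleomycin 7 of the 11 inflammatory genes were higher and none lower, with CEBPB at 0.11 ± 0.29 (edgeR adjusted p = 0.83). Of the TGF-beta-type list 1 was higher and 6 lower, COL3A1 the lowest of them at -2.32 ± 0.41 (edgeR adjusted p = 0.000158). TGFB1 was at 0.26 ± 0.23 there (edgeR adjusted p = 0.446).

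For each member tested, the 3 genes with the most similar pattern were sought among 15299 genes, by Pearson's r of the 12 group means of log2 CPM. HEY1 was followed closest by CSF2, CST2 and SAT1 (r = 0.9985, 0.9984 and 0.9976), HES1 by PDCD6, PGP and TCTEX1D2 (0.994, 0.9934 and 0.9918) and NOTCH2 by AFAP1, DIDO1 and DLC1 (0.9952, 0.994 and 0.993). JAG1 had LHFPL6, SYNC and FAT1 (0.9842, 0.983 and 0.9828) and JAG2 CENPI, RCAN3 and STIM2 (0.9649, 0.9533 and 0.9333). The likeness was lower for NOTCH3, with HIP1, PTPRS and PLXNA1 (0.9144, 0.9005 and 0.8914), and for NOTCH1, with TTPAL, KIAA0754 and CORO1C (0.9107, 0.9086 and 0.9026). Between members, r was 0.966 for HES1 and HEY1, 0.921 for NOTCH2 and JAG1, and -0.967 and -0.943 for NOTCH2 with HES1 and HEY1. The neighbours depended on the measure. By Spearman's rank correlation 0 of the 3 stayed in the top 3 for HEY1, HES1, NOTCH2 and NOTCH1. For NOTCH3 and JAG1 1 stayed, and for JAG2 2. These 12 means come from only 2 cell lines and are dominated by the gap between OIS and the rest, so they describe the pattern only.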

How the data were processed

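Poly(A) RNA was read out by RNA-seq in 42 libraries, and the authors deposited 1 table of raw counts per gene symbol, which was used as deposited. The submitters' processing notes name the build hg38 with DRAGEN, STAR 2.7.8a and DESeq2 1.32.0, whereas the study's methods name TopHat, hg19 and HTSeq for a directional single-end protocol, so the counting route is uncertain and the treatment of shared or antisense reads is not given in the sources used here. Libraries were grouped by the labels. The members and gene lists were chosen with earlier results of these data known.

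Counts were filtered (filterByExpr), scaled by TMM and fitted with edgeR 4.0.16 (R 4.3.3, limma 3.58.1) by group over the 18 ER:RAS, the 24 IMR90 or all 42 libraries. Quasi-likelihood tests were two-sided, Benjamini-Hochberg adjusted over all genes tested and called under 0.05. CPM values are TMM-scaled, and RPKM values divide them by the exon length over all GENCODE models of a gene. Gene coordinates and promoters are those of RefSeq (GRCh38.p14). The procedure was tested on simulated data. All members were named, and of each pathway list up to 6 called genes with the largest absolute change. Some genes of these lists are not reported here.

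Totals ran from 13148194 to 23597310 counts per library. The floors cover counting error only, while the standard errors of the edgeR fit and the SDs of the receptor shares also hold the spread between libraries. No library was a duplicate of another in its group: the closest pair differed by a chi-square of 7.152 per degree of freedom. A legend of the study describes n as independent experiments for the COPB2 knockdown comparisons in senescent cells. For the other libraries the sources used here do not say whether replicates came from separate cultures, so p-values measure the spread between these libraries, which may be technical. Same-numbered libraries deviated together (every pair's correlation above 0.1) in OIS with shCOPB2_1 (0.405 to 0.755) and shCOPB2_2 (0.459 to 0.766) and in the shCOPB2_1 and shCOPB2_2 comparisons in IMR90 with DMSO and with bleomycin (0.106 to 0.787), as judged from the data and not from the labels. Alternatives were DESeq2 size factors, no count filter, the DESeq2 1.42.0 Wald test, fits of other sets of libraries, the replicate number as a block, each library left out, and a correction for GC and length (R splines with 5 degrees of freedom) chosen after seeing the data.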

Additional observations from a re-analysis of the deposited data

Results flagged for a closer look

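Within groups of 4 libraries, the highest or lowest value was set against Dixon's criterion at the 95% level in 42 combinations of group and member, of which chance alone would mark about 1 in 20, and 2 were marked. HEY1 stood at 5.16 CPM in IMR90 with bleomycin and shCOPB2_1, replicate 4, where the other 3 libraries lay between 0.973 and 1.22 CPM. HEY1 also stood at 0.7 CPM in IMR90 with DMSO and shCOPB2_2, replicate 2, where the other 3 lay between 0.406 and 0.447 CPM.

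The response to 4OHT in ER:RAS cells differed from that to bleomycin in IMR90 cells, in a test of the difference itself (edgeR, 42 libraries, control shRNA), for 4 members. The difference in log2 fold change was 4.85 for HEY1, -1.12 for NOTCH2, -1.13 for JAG1 and 1.23 for HES1. Of all 15299 genes, 20.3% were called in the same test. HEY1 and JAG1 kept the call in all 14 fits that left out a library, and NOTCH2 and HES1 in 5 of the 14. NOTCH2 and HES1 also lost it without the count filter and in the fit of only the libraries compared.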

How the results depend on the processing

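Directions and calls of HEY1, HES1 and NOTCH2 in OIS were the same with every shRNA under every alternative run. Over 46 log2 fold changes, the alternatives left 581 values on the same side of the threshold with the same sign, and 41 called values were lost, 7 others gained a call and 39 changed sign, none of the last in a called member. The number of members called moved by more than 1.5 times in 4 cases, leave-one-out fits apart. It went from 1 to 2 with the replicate block in bleomycin with the control shRNA (JAG1, edgeR adjusted p = 0.0432), from 4 to 2 without the count filter and in the fit of only the libraries compared in the difference between OIS and bleomycin, and from 0 to 1 with the DESeq2 Wald test between uninduced ER:RAS and IMR90 cells. Smaller moves, by 1 member, involved JAG1, JAG2, NOTCH2 and HEYL, as given where these are described. Leaving out 1 library gave 3 to 4 members in OIS with the control shRNA and with shCOPB2_1, 4 to 5 with shCOPB2_2, 0 to 2 and 2 to 3 in bleomycin with shCOPB2_1 and shCOPB2_2, 2 to 4 in the difference between OIS and bleomycin, and 0 to 1 between the uninduced lines. In bleomycin with shCOPB2_1 it was 0 without bleomycin replicate 4. The causes were not tested.

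No value that changed sign belonged to a called member. NOTCH1 in OIS came to 0.11 with the GC and length correction for the control shRNA. For shCOPB2_1 it was 0.052 with DESeq2 size factors, 0.054 with the DESeq2 Wald test, 0.025 without the filter, 0.31 with the GC and length correction, 0.0060 in the fit of only the libraries compared and 0.038 in the 42-library fit. For shCOPB2_2 it was 0.045, 0.048, 0.011, 0.36 and 0.021 in the same settings other than the fit of only the libraries compared. NOTCH3 in OIS with the control shRNA was 0.041 with the GC and length correction. In bleomycin with shCOPB2_2, NOTCH1 was -0.021 without the filter, and JAG1 was 0.00095 with DESeq2 size factors, 0.00080 with the DESeq2 Wald test and 0.013 with the GC and length correction. With 1 library left out, NOTCH1 ranged from -0.31 to 0.066, -0.18 to 0.17 and -0.13 to 0.13 in OIS with the control shRNA, shCOPB2_1 and shCOPB2_2, and from -0.029 to 0.18, -0.023 to 0.23 and -0.19 to 0.17 in bleomycin. NOTCH3 ranged from -0.42 to 0.24 in OIS with the control shRNA, and in bleomycin NOTCH2 ranged from -0.28 to 0.085 with shCOPB2_1 and JAG1 from -0.17 to 0.055 with shCOPB2_2.

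The replicate block also brought NOTCH2 under the threshold in bleomycin with shCOPB2_2 (edgeR adjusted p = 0.042) and JAG2 in the difference between OIS and bleomycin (0.0285), in contrasts whose numbers do not pair the libraries throughout, and JAG2 in OIS with shCOPB2_1 as given above. No other member's call changed with it. NOTCH2 in bleomycin with shCOPB2_2 was also called with the GC and length correction (-0.49, edgeR adjusted p = 0.0288) and without bleomycin replicate 3 (-0.76, 0.0237), and JAG2 in bleomycin with shCOPB2_1 without DMSO replicate 3 (-0.82, 0.0235). Depth limits HEY2 and HEYL, and the level of HEY1 with DMSO, which rests on 6 to 15 counts per uninduced ER:RAS library and 6 to 16 per IMR90 library. It also limits HES1 in IMR90 with DMSO, at 11 to 30 counts per library.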
